A study of Mus musculus with 2 samples.

Results

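The mitosis genes are 34 genes whose products drive and carry out cell division, and they were chosen by symbol from the gene table that both libraries share. All 34 were found among the 27998 genes of that table. The study profiled single cells of the mouse carotid artery after wire injury, in which a guide wire is passed along the vessel to rub off its endothelium, as a model of thickening of the inner wall (intimal hyperplasia). All animals were male C57BL/6J mice, 8 weeks of age with no altered gene named in the labels, and every animal was injured. One library was made 14 days (2 weeks) and 1 library 28 days (4 weeks) after injury, and the series design gives n = 18 for each. Cells cannot be traced to an animal, so the animal-to-animal spread is unknown, no difference between the times can be tested, and every interval given is a 95% interval for counting error only. Uninjured arteries were not analysed here. The labels name the carotid artery as the tissue, but aortic grafts are written in the protocol for cell isolation, and the surgery text mentions both sides of the neck. After perfusion, the adventitia was separated from the media and neointima, and nucleated live cells were sorted.

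Mitosis is set in motion when cyclins A and B activate the kinase CDK1, and it ends when the anaphase-promoting complex marks those cyclins and other proteins for destruction. In between, Aurora and Polo kinases, kinesin motors, kinetochore proteins and the cytokinesis machinery attach, separate and enclose the chromosomes. Most of these genes are transcribed together late in the cell cycle and are silent in resting cells. Injured arteries are known for division of smooth muscle cells soon after wounding, the thymus for massive division of immature thymocytes, and germinal centres for division of B cells.

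After filtering, 5152 cells at 2 weeks and 7422 at 4 weeks remained, with medians of 11775.5 and 8710 UMIs (unique molecular identifiers, counted transcripts). They fell into 26 clusters, which carried the markers of 11 cell classes except for 4 that stayed unnamed. The clustering left out the mitosis genes, other cell cycle genes and genes correlated with the summed mitosis genes. Smooth muscle, fibroblast, endothelial and myeloid markers were present, as the tissue label would have it. Thymocyte-like cells (Rag1, Dntt, Ptcra) made up 31.1% and 7.76% of the cells deep enough to be scored, and a parathyroid-like cluster (Pth, Chga) and a cluster with airway genes were also present, so the libraries hold cells of tissues that the label does not name. The libraries share 8 cell barcodes.

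A cell was counted as dividing when UMIs of at least 3 different mitosis genes were found in it after every cell had been thinned to 2700 UMIs. By that count 719 of 4616 cells divided at 2 weeks (15.6%, 14.5 to 16.7) and 397 of 6724 at 4 weeks (5.90%, 5.35 to 6.49). Nearly all dividing cells were lymphoid: thymocyte-like cells were 92.1% of them at 2 weeks, and thymocyte-like and B cell-like cells were 50.4% and 43.8% at 4 weeks. Fibroblast-like cells were 22.4% and 44.1% of scored cells, yet 0.695% and 1.51% of the dividing ones. With the thymocyte-like cells set aside, 57 of 3181 cells (1.79%, 1.36 to 2.32) divided at 2 weeks and 197 of 6202 (3.18%, 2.75 to 3.64) at 4 weeks, the opposite order. That order came from B cell-like cells, which gave 174 of the 197: with both classes set aside, 55 of 3145 cells (1.75%, 1.32 to 2.27) divided at 2 weeks and 23 of 4830 (0.476%, 0.302 to 0.714) at 4 weeks. Depth differs between the times (medians of 13843 and 9233 UMIs without thymocyte-like cells), and before thinning 17.3% and 7.58% of those cells had 3 mitosis genes. The cut sits close to some cells: 236 and 226 cells had exactly 2 mitosis genes, 78 and 63 had exactly 3, and 599 and 308 had 5 or more. Neutrophils, which have left the cell cycle, gave the background: 0 of 147 neutrophil-like cells divided at 2 weeks (upper limit for a count of 0: 2.04%). At 4 weeks it was 0 of 24, with a limit of 12.5%, so the background at that time is hardly bounded. At least 1 mitosis gene UMI was present in 40.1% of the neutrophil-like cells at 2 weeks, at a median of 3110 UMIs, so a single UMI was not read as division.

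**Figure D1:**
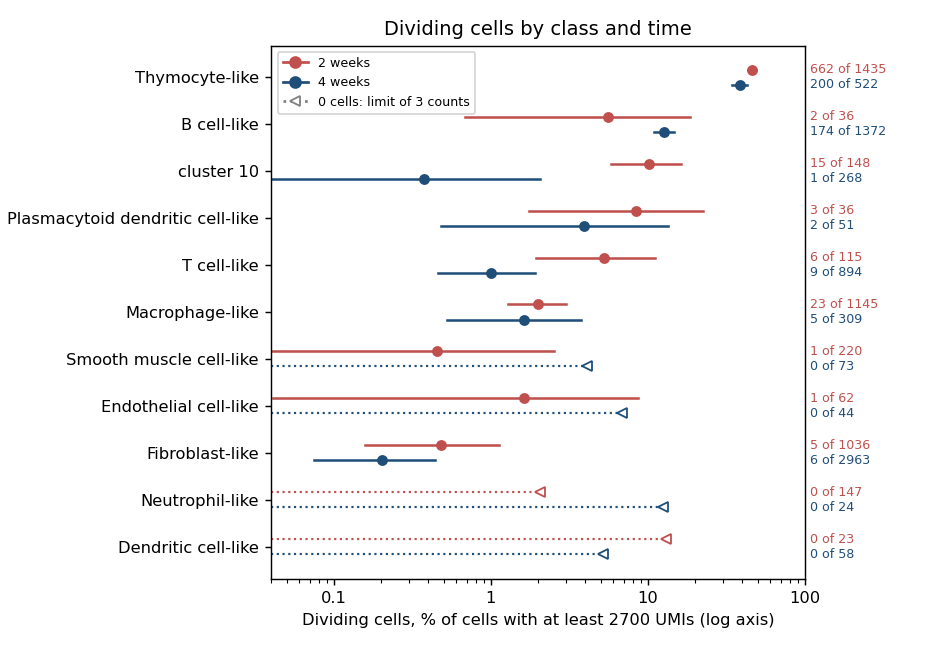
Share of dividing cells in each class at 2 and 4 weeks, as a percentage of cells with at least 2700 UMIs on a log axis. Circles are shares, lines their exact 95% intervals (cut off at the left edge), open triangles the limit that a count of 0 allows (3 counts) where no cell divided, and the counts stand at the right. Thymocyte-like cells lie near 46.1% and 38.3%, B cell-like cells at 4 weeks near 12.7%, and fibroblast-like cells under 1%.

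The promoters of the mitosis genes share sequence elements that the choice of genes did not use. The CHR element (TTTGAA or TTCGAA) and the CCAAT box are known docking sites of the DREAM and MuvB complexes and of NF-Y, which hold these genes off in resting cells and turn them on late in the cycle. RefSeq windows of build GRCm38.p6, from 250 bases before to 50 after a start site, were present for 30 of the 34 genes (32 windows, since Ect2 and Prc1 have a pair each). TTTGAA or TTCGAA was found on either strand in 26 of 32 windows (81.2%), against 19.2% of all 32851 windows of the same length. CCAAT was found on either strand in 26 of 32 windows (81.2%, all windows 37.4%), at least 2 times in 59.4% (all windows 11.7%), and both elements were found in 75.0% (all windows 7.52%). CHR and CCAAT letters can overlap by 1 base, and overlapping CCAAT matches on opposite strands were counted separately. Of 31 windows of DNA replication genes 16.1% held the CHR letters and 58.1% CCAAT, and of 44 windows of further mitosis genes 65.9% held each. The 5 windows printed here carry the genes on which the results turn: Cdk1, the kinase that starts mitosis, Cdc20, the activator of the anaphase-promoting complex, Top2a, the topoisomerase that untangles chromosomes, and the pair with the largest shares in cells below the cut of 3 genes, Cenpa and Anln. They run 5′ to 3′ along the strand of the gene, and capitals mark CHR and CCAAT matches on either strand.
Cdk1, chr10:69352863-69353162 (minus strand): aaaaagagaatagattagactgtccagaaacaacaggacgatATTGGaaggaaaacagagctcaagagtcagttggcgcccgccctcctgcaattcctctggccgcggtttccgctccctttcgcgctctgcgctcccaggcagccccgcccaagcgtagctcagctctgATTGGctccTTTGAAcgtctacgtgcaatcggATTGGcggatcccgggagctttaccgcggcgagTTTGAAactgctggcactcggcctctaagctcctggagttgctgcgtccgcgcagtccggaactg
Cdc20, chr4:118437294-118437593 (minus strand): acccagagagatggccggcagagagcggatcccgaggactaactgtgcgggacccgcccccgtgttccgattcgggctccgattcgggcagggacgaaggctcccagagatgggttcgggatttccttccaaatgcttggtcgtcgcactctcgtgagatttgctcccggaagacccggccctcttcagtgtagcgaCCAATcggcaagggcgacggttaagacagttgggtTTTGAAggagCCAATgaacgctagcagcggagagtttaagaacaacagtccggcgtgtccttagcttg
Top2a, chr11:99024140-99024439 (minus strand): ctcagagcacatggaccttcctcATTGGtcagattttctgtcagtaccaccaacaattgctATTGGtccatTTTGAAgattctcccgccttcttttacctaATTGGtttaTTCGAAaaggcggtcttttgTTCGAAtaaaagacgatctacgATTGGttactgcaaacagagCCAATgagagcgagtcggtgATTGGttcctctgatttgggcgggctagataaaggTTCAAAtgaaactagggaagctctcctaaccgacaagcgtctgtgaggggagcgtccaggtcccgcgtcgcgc
Cenpa, chr5:30666636-30666935 (plus strand): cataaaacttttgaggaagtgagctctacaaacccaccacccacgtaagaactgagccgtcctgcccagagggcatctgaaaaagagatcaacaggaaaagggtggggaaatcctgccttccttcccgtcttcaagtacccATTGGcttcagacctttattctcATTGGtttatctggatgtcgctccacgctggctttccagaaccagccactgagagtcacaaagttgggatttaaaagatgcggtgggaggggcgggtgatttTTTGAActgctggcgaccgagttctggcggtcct
Anln, chr9:22389157-22389456 (minus strand): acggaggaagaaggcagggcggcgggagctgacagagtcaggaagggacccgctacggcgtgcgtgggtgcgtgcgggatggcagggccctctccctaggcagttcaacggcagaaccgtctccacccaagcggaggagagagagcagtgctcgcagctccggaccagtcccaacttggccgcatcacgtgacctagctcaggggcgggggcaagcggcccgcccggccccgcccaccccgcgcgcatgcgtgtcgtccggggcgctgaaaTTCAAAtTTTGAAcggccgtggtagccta
Cdk1, Cdc20, Top2a and Cenpa each hold at least 1 CHR match and 2 CCAAT matches. In the Anln window 2 CHR matches and no CCAAT match were found. No CHR match was found in the windows of Nuf2, Nusap1, Cenpe, Tacc3, Birc5 and Ccnb1, which says only that these letters are not in those windows.

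Thymocyte-like cells held the highest level of the mitosis genes at both times. The 34 genes together gave 7152 CPM (counts of a gene per 1000000 UMIs of the class; 7113 to 7191) at 2 weeks and 5846 CPM (5784 to 5909) at 4 weeks, and 662 of 1435 (46.1%, 43.5 to 48.8) and 200 of 522 (38.3%, 34.1 to 42.6) cells divided. The dividing cells were mostly in cluster 7, whose leading genes include Dntt, Tcf7 and histone genes: 83.2% of its scored cells divided at 2 weeks and 81.0% at 4 weeks. In cluster 0, led by Rag1, Arpp21 and Cd8b1, 25.2% and 15.6% divided, and in cluster 17, led by Lef1 and Ccr9, 7.22% and 2.56%. Dividing cells were deeper than the rest of their cluster, with median UMIs of 10784 against 3660 in cluster 0 and 21691.5 against 13206 in cluster 7 at 2 weeks. Rag1, the recombinase that cuts antigen receptor genes, stood at 957 CPM in dividing and 1946 CPM in other cells of cluster 0 at 2 weeks, and at 892 and 2016 CPM at 4 weeks, while Dntt differed little there (1607 and 1537 CPM at 2 weeks). A thymocyte-like class of this size was sampled unevenly by depth: 233 of 1668 cells at 2 weeks and 290 of 812 at 4 weeks were too shallow to be scored, and without thinning 46.3% and 28.3% of all its cells had 3 mitosis genes. Among the deeper cells that allow thinning to 5000 UMIs, 81.2% and 77.4% divided. With every cell weighed equally the summed levels were 4509 and 2886 CPM.

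The fall in summed level was uneven within the class: cluster 7 stood at 7287 CPM at 2 weeks and 6821 CPM at 4 weeks, cluster 0 at 7341 and 4437 CPM, and cluster 17 at 2368 and 1011 CPM. These clusters held 556, 991 and 121 cells at 2 weeks and 198, 559 and 55 at 4 weeks. Over the whole class none of the 34 genes passed a 2-fold difference in either direction (background over 11595 genes: 2.37% lower and 2.41% higher). All 34 nonetheless had log2 ratios of 4 weeks over 2 weeks below 0, with a median of −0.28, against 0.02 over all genes. The lowest ratios belonged to Ect2 (the exchange factor that starts the cleavage furrow), at 57.8 CPM at 2 weeks and 41.2 at 4 weeks (log2 −0.49, −0.70 to −0.28), Anln (anillin, a scaffold of the furrow), at 32 and 22.9 CPM (−0.49, −0.77 to −0.21), and Cenpe (a kinetochore motor), at 234 and 169 CPM (−0.47, −0.57 to −0.37). The ratios nearest 0 belonged to Cdk1, at 143 and 138 CPM (−0.05, −0.16 to 0.07), Cdc20, at 139 and 134 CPM (−0.06, −0.17 to 0.06), and Ube2c, the ubiquitin-conjugating enzyme of the anaphase-promoting complex, at 566 and 536 CPM (−0.08, −0.14 to −0.02). Intervals that exclude 0 here speak of counting error in single libraries. Of the lists for comparison, 27 of 30 DNA replication genes (median −0.19) and 46 of 50 further mitosis genes (median −0.29) also lay below 0, with none past 2-fold.

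At 4 weeks B cell-like cells came next, and at 2 weeks there were few of them. Their summed mitosis gene level was 681 CPM at 2 weeks, from 44 cells of which 1 gave 39.2% of the UMIs, and 2605 CPM (2575 to 2636) at 4 weeks, from 1449 cells. Dividing cells numbered 2 of 36 (5.56%, 0.68 to 18.7) and 174 of 1372 (12.7%, 11.0 to 14.6). At 4 weeks 155 of them lay in cluster 13, where 57.6% of 269 cells divided, and 19 in cluster 2, where 1.72% of 1103 did. Cluster 13 carries Rgs13, Mzb1 and Jchain. At 2 weeks this cluster held 7 cells, 6 of them scored and 2 dividing. Dividing cells of cluster 13 had a median of 20285 UMIs, the others 9530. The class share was 28.1% among cells thinned to 5000 UMIs and 20.0% where 2 genes were enough, and its summed level was 1012 CPM with every cell weighed equally.

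Cluster 10, which carries both T cell and natural killer cell markers (Ccl5, Nkg7, Gzma) and so stayed unnamed, stood far lower at 4 weeks than at 2 weeks. Its 34 genes summed to 1090 CPM (1032 to 1150) at 2 weeks and 115 CPM (102 to 131) at 4 weeks, with 15 of 148 (10.1%, 5.78 to 16.2) and 1 of 268 (0.373%, 0.00945 to 2.06) cells dividing. At 4 weeks 258 mitosis gene UMIs remained to compare, against 1330 at 2 weeks. Of the 34 genes 22 had at least 20 UMIs over both times, 19 of them at 2 weeks and 2 (Cenpa and Top2a) at 4 weeks, so most entered through the library in which they were high. Among those 22, 21 were lower at 4 weeks by 2-fold or more and none higher (background 7.75% and 3.07% of 8439 genes), a count that the minimum of UMIs helps to set. Ube2c stood at 143 and 2.69 CPM (log2 −5.73, −7.20 to −4.58), Birc5 (survivin, a chromosomal passenger) at 72.9 and 1.79 CPM (−5.35, −7.25 to −3.94), and Nusap1 (a spindle microtubule binder) at 24.6 and 0.448 CPM (−5.78, −11.1 to −3.19). Ccna2 gave 27 UMIs at 2 weeks and 0 at 4 weeks. Fbxo5, an inhibitor of the anaphase-promoting complex, was the exception at 9.83 and 7.61 CPM (−0.37, −1.52 to 0.83). Under the same minimum, 15 of 26 replication genes and 15 of 21 further mitosis genes were lower by 2-fold or more, and none was higher. Without the dividing cells of both times, 5 mitosis genes had at least 20 UMIs, and 2 of them were lower by 2-fold or more (background 6.80%). The sums were then 204 and 112 CPM. Of the 15 cells, 12 had a UMI of Cd3e (a T cell receptor subunit), 9 of Cd8a, 3 of Ncr1 (a natural killer receptor), 11 of Eomes and 10 of Gzmb, and none of Rag1. Dntt, the other thymocyte marker looked for, was found in 4 of them (26.7%) and in 8 of the 133 cells below the cut (6.02%) at 2 weeks. Eomes, a transcription factor of cytotoxic cells, was found in 73.3% of dividing and 27.8% of other cells of the cluster at 2 weeks, and the dividing cells were deeper (median 13215 against 7327 UMIs).

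The remaining T cell-like clusters divided less. The share was 6 of 115 (5.22%, 1.94 to 11.0) at 2 weeks and 9 of 894 (1.01%, 0.461 to 1.90) at 4 weeks, with summed levels of 306 and 217 CPM. Most T cell-like cells at 2 weeks (82 of 123) were in cluster 18, which carries Il17a and Cxcr6 and held 5 of the 6 dividing cells, whereas at 4 weeks cluster 9 was the largest (484 of 933) and held 4 of 9. Of 24 genes with at least 20 UMIs, 4 were lower and 2 higher at 4 weeks by 2-fold or more (background 10.7% and 7.86%), with a median log2 ratio of −0.27 against −0.13 over all genes. Cenpa, the histone variant that marks centromeres, was lower, at 83.6 and 34.8 CPM (log2 −1.27, −1.66 to −0.85), and so was Prc1, a bundler of midzone microtubules, at 17.2 and 6.22 CPM (−1.47, −2.37 to −0.48). Cenpf and Cdk1, with 1 UMI each at 2 weeks, were the higher pair, at 6.83 and 5.16 CPM at 4 weeks. One cell gave 24.8% of the mitosis gene UMIs at 4 weeks. Without the dividing cells of both times, 5 of 11 genes were lower by 2-fold or more (background 10.8%) and 0 higher (7.94%). The median log2 ratio of those 11 genes was −0.86. The summed levels were then 262 and 126 CPM (log2 −1.06, −1.29 to −0.83).

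Among myeloid cells, macrophage-like cells held a small dividing share at both times: 23 of 1145 (2.01%, 1.28 to 3.0) and 5 of 309 (1.62%, 0.527 to 3.74), at 209 and 195 CPM. Cluster 6, led by Saa3, Il1b and Arg1, held 15 and 5 of these cells (2.86% and 2.55% of its scored cells), and cluster 5, led by C1qa and Mrc1, held 8 and 0 (1.29% at 2 weeks). Most macrophage-like cells were in cluster 5 at 2 weeks and in cluster 6 at 4 weeks. The intervals of both times overlap. With the doublet step left out the 2-week share was 3.64%, and with 5 genes asked for it was 0.873%. Between the times 2 of 33 genes were lower and 1 higher by 2-fold or more (background 4.55% and 3.72%), and the median log2 ratio was −0.046, with Cenpf at 7.92 and 3.47 CPM (log2 −1.19, −2.14 to −0.37) and Bub1, a checkpoint kinase, at 1.24 and 2.67 CPM (1.11, −0.14 to 2.26). With the doublet step left out 15 genes were lower by 2-fold or more, a count given without the share over all genes in that setting and so not read further. Cluster 22, named plasmacytoid dendritic cell-like, mixes Siglech cells with Xcr1 cells, and its dividing cells numbered 3 of 36 and 2 of 51. All 3 at 2 weeks had Xcr1 and none had Siglech, and 1 cell gave 59.3% of the mitosis gene UMIs there. None of 23 and 58 dendritic cell-like cells with Ccr7 divided, which allows shares of up to 13.0% and 5.17%.

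Among fibroblast-like, smooth muscle cell-like and endothelial cell-like cells, 7 cells at 2 weeks and 6 at 4 weeks were counted as dividing. Whether they come from the vessel wall is not known from these data. Fibroblast-like cells gave 5 of 1036 (0.483%, 0.157 to 1.12) at 2 weeks and 6 of 2963 (0.202%, 0.0743 to 0.440) at 4 weeks. Their summed levels, 88.5 and 50.3 CPM, were below those of neutrophil-like cells (174 and 114 CPM). Neutrophil-like cells also held more Dntt, a thymocyte gene, than fibroblast-like cells did. The part of free RNA in either level was not tested, so the neutrophil-like level is not a measured level of resting cells. All 5 dividing cells at 2 weeks came from cluster 8, led by Col1a1, Col3a1 and Fbn1. It held 567 of the 1082 fibroblast-like cells then and 149 of 3121 at 4 weeks, when cluster 1 (Pi16, Igfbp5) was the largest. Of the 6 dividing cells at 4 weeks, 4 lay in cluster 4 (Dcn, Inmt), 1 in cluster 1 and 1 in cluster 8. Exactly 3 mitosis genes were found in 3 of the 4 cells of cluster 4. Smooth muscle cell-like cells gave 1 of 220 (0.455%, 0.0115 to 2.51) and 0 of 73 (up to 4.11%), and endothelial cell-like cells 1 of 62 (1.61%, 0.0408 to 8.66) and 0 of 44 (up to 6.82%). At 2 weeks the fibroblast-like, smooth muscle cell-like, endothelial cell-like and macrophage-like shares lay under 2.04%, the limit for 0 of 147 neutrophil-like cells. That limit is set by the number of neutrophil-like cells scored, so lying under it does not tell whether these calls are background. No dividing cell was found in the Mgp and Eln cluster (0 of 124 and 0 of 105). Of the 34 genes in fibroblast-like cells 12 were lower at 4 weeks by 2-fold or more and none higher (background 5.88% and 2.05% of 13869 genes), with a median log2 ratio of −0.76 against −0.0012 over all genes. Of the comparison lists 3 of 30 replication genes and 10 of 44 further mitosis genes were lower. Top2a gave 11.0 and 2.77 CPM (log2 −1.99, −2.33 to −1.67) and Cdk1 4.30 and 1.18 CPM (−1.87, −2.40 to −1.35). A few cells carried that count: 1 cell held 20.2% of the Top2a UMIs at 2 weeks. Without the top cell of each library, 5 of 32 genes were lower by 2-fold or more (background 5.73%). Without the dividing cells it was 2 of 31, near the background of 5.58%. The summed levels were then 65.6 and 45.9 CPM. With the doublet step left out, 1.88% and 0.759% of fibroblast-like cells divided. In that setting 3 genes were lower by 2-fold or more, a count given without the share over all genes.

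**Figure D2:**
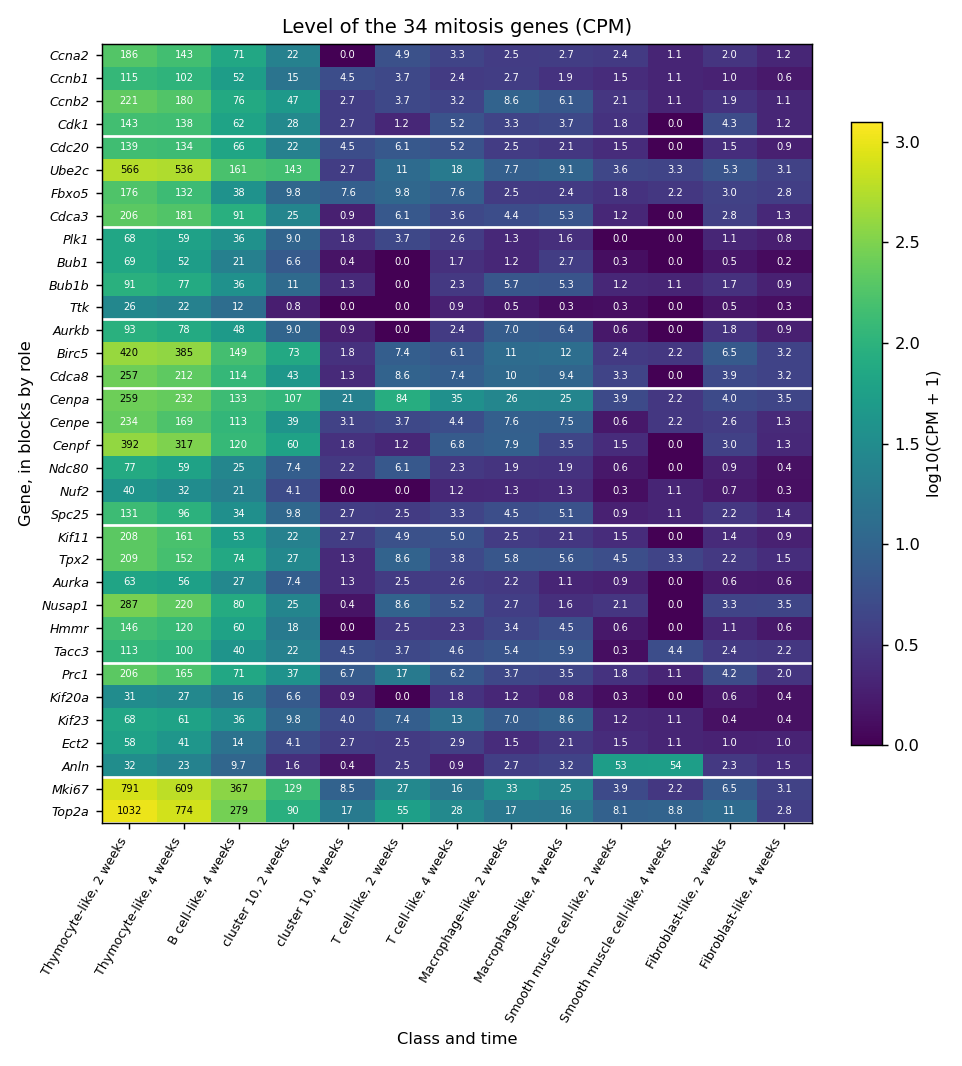
Level of each of the 34 mitosis genes, as CPM printed in each cell and coloured as log10(CPM + 1), by class and time, in blocks by role from cyclins at the top to Mki67 and Top2a at the bottom. Thymocyte-like, B cell-like (4 weeks) and cluster 10 (2 weeks) columns are high in all blocks, and Anln alone is high in smooth muscle cell-like cells (52.7 and 53.7 CPM).

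The number of mitosis genes found per cell separated strong from marginal calls. In dividing cells of cluster 0 the median was 18 of 34 genes at 2 weeks and 19.5 at 4 weeks, in cluster 7 it was 13 and 12, and in cluster 13 at 4 weeks 10. It was 6 in cluster 10 at 2 weeks, 5 in cluster 6 and 3 in cluster 5 among macrophage-like cells, and 4 in the fibroblast-like cluster 8. The highest counts were 27 in thymocyte-like, 24 in B cell-like, 18 in macrophage-like, 16 in cluster 10 and 10 in fibroblast-like cells at 2 weeks (B cell-like at 4 weeks). Neutrophil-like cells never passed 2. Calls at the cut occurred in lymphoid and myeloid classes alike: exactly 3 genes were found in 16 of 19 dividing cells of the B cell-like cluster 2 at 4 weeks, in 4 of 6 T cell-like cells, in 5 of 15 cells of cluster 10 and in 4 of 15 of the macrophage-like cluster 6 at 2 weeks. In both cluster 10 and cluster 6, 9 of those 15 had 5 or more.

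**Figure D3:**
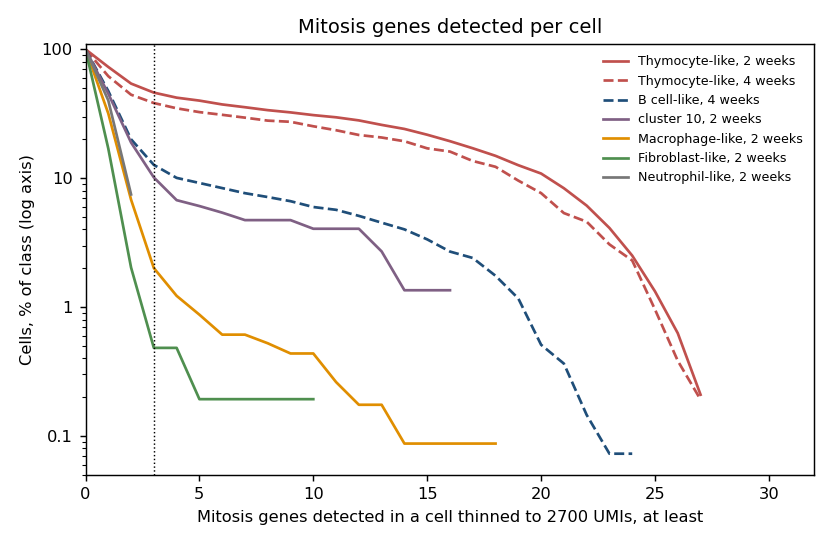
Share of cells (log axis, % of the class) with at least the given number of mitosis genes after thinning to 2700 UMIs. The dotted line marks the cut of 3 genes. Thymocyte-like and B cell-like curves reach 27 and 24 genes, and the neutrophil-like curve ends at 2.

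Top2a, Mki67 and Ube2c led the mitosis gene UMIs within dividing thymocyte-like cells at both times. In dividing thymocyte-like cells Top2a gave 14.4% (14.2 to 14.6) of the UMIs of the 34 genes at 2 weeks and 13.2% at 4 weeks, Mki67 (a surface coat of mitotic chromosomes) 11.1% and 10.4%, and Ube2c 7.98% and 9.25%. Ttk, Anln and Kif20a gave under 0.5% each at both times. These are shares of UMIs, not scaled to transcript length, so they order genes by UMIs and not by molecules. By role, Mki67 with Top2a gave 25.5% and 23.6%, the 6 kinetochore genes 15.7% and 15.3%, the 4 genes of the destruction machinery 15.2% and 16.9%, the 6 spindle genes 14.5% and 14.0%, the 3 chromosomal passengers 10.8% and 11.6%, the 4 cyclins with their kinase 9.27% and 9.69%, the 5 genes of cytokinesis 5.47% and 5.32%, and the 4 checkpoint kinases 3.57% and 3.58%. The order of the roles was thus nearly the same at both times.

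In pooled UMIs, B cell-like cells differed from that in single genes. Mki67 led with 14.3% of the UMIs, ahead of Top2a with 10.6%, the reverse of the thymocyte-like order at both times. Set against thymocyte-like cells at 2 and at 4 weeks, the share was higher in B cell-like cells for Nuf2, a kinetochore subunit (log2 0.63 and 0.66), Plk1, the Polo kinase (0.61 and 0.54), Kif23, a midzone motor (0.60 and 0.54), Kif20a, another midzone motor (0.59 and 0.49) and Mki67 (0.37 and 0.46). It was lower for Fbxo5 (−0.82 and −0.71), Ect2 (−0.58 and −0.38), Spc25, a kinetochore subunit (−0.55 and −0.39), Kif11, the motor that pushes spindle poles apart (−0.47 and −0.39), and Top2a (−0.44 and −0.31). The comparison with the 2-week thymocyte-like cells crosses libraries and the other does not, and both share the same B cell-like cells. Both comparisons pool the UMIs of all dividing cells of a class, so deeper cells weigh more. Ratios with every cell weighed equally are not given for these genes, so the differences are read for pooled UMIs only. In the 23 dividing macrophage-like cells at 2 weeks the leading genes were Mki67 (11.9%), Birc5 (8.64%), Cenpf (7.25%) and Ccnb2, a B-type cyclin (7.25%), with Top2a at 7.09%. Kinetochore genes gave 23.5% (21.1 to 25.9) of their mitosis gene UMIs, above the shares in the thymocyte-like and B cell-like cells. That interval counts pooled UMIs and leaves out the spread between the 23 cells.

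**Figure D4:**
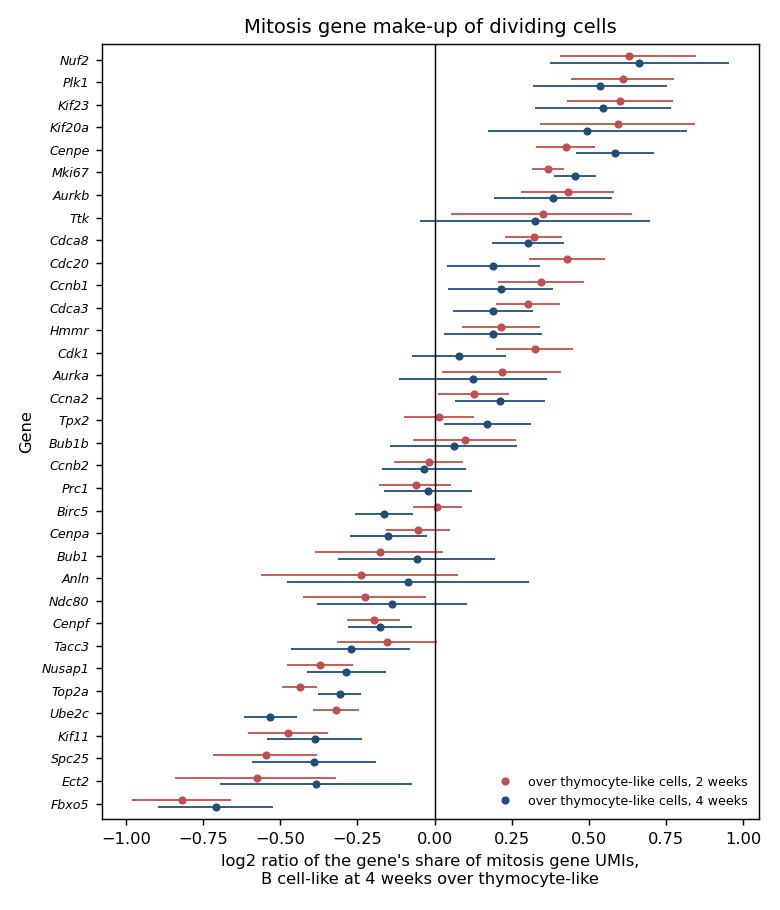
For each mitosis gene, the log2 ratio of its share of mitosis gene UMIs in dividing B cell-like cells at 4 weeks over that in dividing thymocyte-like cells at 2 weeks (red) and 4 weeks (blue), with 95% counting intervals. Nuf2 and Plk1 lie at the top above 0.5, and Fbxo5 at the bottom below −0.7. Shares pool the UMIs of all dividing cells of a class, so deeper cells weigh more.

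The share of dividing cells that also carried DNA replication genes differed between classes, and between clusters of the same class. Of the dividing thymocyte-like cells 87.8% at 2 weeks and 90.5% at 4 weeks had at least 3 of 30 replication genes in the thinned counts, as did 82.2% of the dividing B cell-like cells at 4 weeks. Within the thymocyte-like class it was 98.7% and 99.3% in cluster 7, against 63.3% and 60.9% in cluster 0. In cluster 17 it was 5 of 7 and 1 of 1. Within the B cell-like class at 4 weeks it was 88.4% in cluster 13 and 31.6% in cluster 2. At 2 weeks it was 26.1% (6 of 23) in macrophage-like cells, 40.0% (6 of 15) in cluster 10, 33.3% (2 of 6) in T cell-like and 40.0% (2 of 5) in fibroblast-like cells, and the single smooth muscle cell-like and endothelial cell-like cells had fewer than 3. At 4 weeks 6 of 9 T cell-like, 5 of 6 fibroblast-like and 1 of 5 macrophage-like dividing cells carried them. Over all scored cells at 2 weeks the share was 28.4% in cluster 10, 18.3% in T cell-like, 4.98% in macrophage-like and 3.19% in fibroblast-like cells. At 4 weeks it was 16.4%, 15.8%, 6.80% and 4.72%. Cells with replication genes but fewer than 3 mitosis genes numbered 197 and 67 in the thymocyte-like class and 233 in the B cell-like class at 4 weeks. They numbered 36 and 44 in cluster 10 and 19 and 135 in the T cell-like class, so replication genes there were not confined to dividing cells.

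Dividing cells were set against cells of the same class without any mitosis gene UMI in the thinned counts. Levels were taken from the full counts, in which those comparison cells can still hold mitosis gene UMIs. In dividing thymocyte-like cells 29 of 30 replication genes were higher by 2-fold or more at 2 weeks (all genes 10.9%) and 29 of 30 at 4 weeks (10.9%). So were 29 of 30 in B cell-like cells at 4 weeks (14.8%) and 26 of 27 in macrophage-like cells at 2 weeks (9.88%). The medians were 2.81, 2.69, 3.15 and 2.83 on the log2 scale, where over all genes they were −0.35, −0.29, −0.09 and 0.06. Dut, which removes dUTP, stood at 915 and 150 CPM in dividing and other thymocyte-like cells at 2 weeks (log2 2.61), and Rrm2, a subunit of ribonucleotide reductase, at 349 and 16.5 CPM (4.40). Of 50 further mitosis genes, 48, 48 and 49 were higher in those lymphoid groups, with Hmgb2, a chromatin protein, at 4364 and 476 CPM in thymocyte-like cells at 2 weeks (3.20). Pttg1 (securin) went the other way there, at 20.8 and 38.6 CPM (−0.89, −1.26 to −0.51). Of the genes that brake the cycle, 5 of 16 were lower and 3 higher in thymocyte-like cells at 2 weeks (all genes 22.9% and 10.9%), with Btg1, an antiproliferative gene, at 236 and 1063 CPM (−2.17) and Cdkn1b, an inhibitor of cyclin-dependent kinases, at 169 and 447 CPM (−1.40). In B cell-like cells 4 of 16 were lower and 2 higher (all genes 17.6% and 14.8%), with Btg1 at 357 and 1680 CPM (−2.24). In macrophage-like cells 1 of 16 was lower and 2 higher (all genes 14.9% and 9.88%). Btg1 stood at 423 and 670 CPM there (−0.66, −0.89 to −0.44), short of 2-fold. Medians of the brake genes were −0.55 and −0.25 in thymocyte-like cells at 2 and 4 weeks, −0.36 in B cell-like and −0.02 in macrophage-like cells. Over all genes they were −0.35, −0.29, −0.09 and 0.06. The brake genes named here all fell and do not stand for the list. Dividing cells are deeper, and the part of depth in these differences was not tested.

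In cells below the cut the make-up of the mitosis genes differed by class, and in some classes a single gene led. In smooth muscle cell-like cells at 2 weeks that were below the cut, Anln gave 47.7% (42.4 to 52.9) of the UMIs of the 34 genes, against 0.44% in dividing thymocyte-like cells. Over all cells of that class Anln stood at 52.7 CPM (45.2 to 61.1) at 2 weeks and 53.7 CPM (39.8 to 71.0) at 4 weeks, above the 32 and 22.9 CPM of the thymocyte-like class, while Mki67 stood at 3.91 and 2.19 CPM. The largest share from 1 cell was 4.57% and 8.16%, and 11.4% and 9.59% of the thinned cells had an Anln UMI, so the level was spread over many cells. In fibroblast-like cells Anln stood at 2.27 and 1.54 CPM, and the neutrophil-like cells had 0 UMIs of it at both times. No gene led in that way in fibroblast-like cells below the cut, where Top2a (10.4%) and Birc5 (7.35%) gave the most at 2 weeks and Cenpa and Nusap1 (7.46% each) at 4 weeks.

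Cenpa led in B cell-like and T cell-like cells below the cut at 4 weeks. Of the 1198 such B cell-like cells 233 had at least 3 replication genes and 101 had 2 mitosis genes, so the group is not one of resting cells alone. Cenpa gave 33.1% (30.7 to 35.5) of the mitosis gene UMIs in B cell-like cells below the cut at 4 weeks and 23.7% (20.7 to 26.8) in T cell-like cells, against 3.40% and 3.53% in dividing B cell-like cells and in dividing thymocyte-like cells at 2 weeks. Its level in those cells was 76.0 and 28.6 CPM. In macrophage-like cells below the cut Mki67 led at 2 weeks (18.0%) and Cenpa at 4 weeks (16.3%). Kif23, a midzone motor, gave 9.52% (7.55 to 11.8) in T cell-like cells at 4 weeks, against 0.93% in dividing thymocyte-like cells at 2 weeks. In macrophage-like cells below the cut it gave 3.94% (3.18 to 4.82) and 5.13% (3.28 to 7.60), against 2.36% (1.59 to 3.38) in the dividing macrophage-like cells at 2 weeks. Free RNA can add UMIs to any class. The ratio of mitosis gene UMIs to those of Dntt, a thymocyte gene, was 7.0 in all thymocyte-like cells at 2 weeks, 2.64 in neutrophil-like cells, 13.1 in fibroblast-like cells, 23.0 in macrophage-like cells and 111 in cluster 10. Dntt itself stood at 1022 CPM in thymocyte-like cells and at 66.0, 6.74, 9.11 and 9.83 CPM in those others. The part of free RNA in the low levels was not tested.

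**Figure D5:**
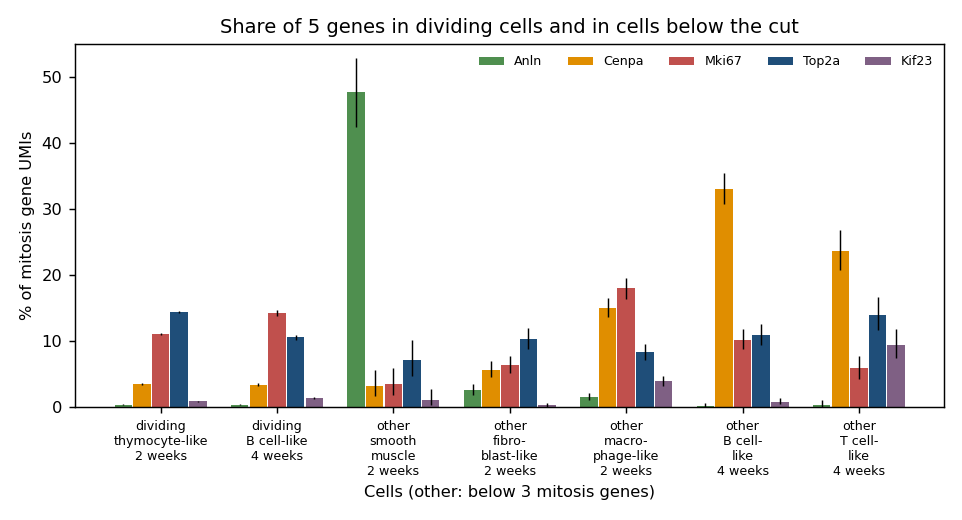
Share of the UMIs of all 34 mitosis genes that came from Anln, Cenpa, Mki67, Top2a and Kif23, in dividing cells (left, both groups) and in cells below the cut of 3 genes (others), with exact 95% intervals. Anln reaches 47.7% in smooth muscle cell-like cells and Cenpa 33.1% in B cell-like cells, against under 4% in the dividing cells.

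The genes whose level most resembled the summed mitosis genes over 24 points (each class or unnamed cluster with at least 50 cells in a library, on the log2(CPM + 1) scale) were Stmn1 (r = 0.94), Gmnn (0.94), Srsf3 (0.93), Hnrnpd (0.93), Hnrnpa2b1 (0.93), Aspm (0.93), Nasp (0.93), Supt16 (0.93), Hnrnpa3 (0.92) and Ezh2 (0.92). Stmn1 ran from 16.5 to 1893 CPM, Gmnn from 3.64 to 200 CPM and Ezh2 from 8.74 to 552 CPM. Among the points is cluster 19, an unnamed cluster of shallow cells (median 873 UMIs, 147 of 149 too shallow to be scored). Hnrnpa2b1, Aspm and Supt16 had their highest level there at 2 weeks, out of 78464 UMIs in all. The points share libraries and depth, so these values are a description.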

How the data were processed

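UMI counts per gene and barcode of both libraries were used as deposited by the authors, with no scaling. The file headers name Cell Ranger 4.0.0, and the submitters' processing notes name the build mm10. Barcodes under 300 genes or 500 UMIs, or with over 10% mitochondrial UMIs, were dropped, and the highest Scrublet scores were removed at 0.8% per 1000 barcodes (275 and 587 cells). Log counts of 2000 variable genes were clustered by Leiden at resolution 1 on 30 principal components and 15 neighbours, both libraries together, in scanpy 1.11.5. The cell cycle lists were left out, and so were 105 genes correlated above 0.4 with the summed level of the 34 mitosis genes, Dntt among them. A cluster took the class with the largest share of markers (at least 3 and 50%) at 2 or more times the median of the other clusters in at least 10% of cells, with a lead of 20 points over unrelated classes. Thinning drew 2700 UMIs from each cell, close to the 10th percentile of depth. Sums per class and library were scaled to CPM, with exact Poisson, Clopper-Pearson and conditional binomial intervals at 95%, and a count of 0 was read as up to 3 counts. Genes with at least 20 UMIs were counted as higher or lower past 2-fold. All 34 genes could be named by role, with the 3 highest and 3 lowest ratios per class, up to 3 genes per further list by UMIs in dividing cells, and the 10 most alike genes. Pttg1, Ccna2 in cluster 10, cluster marker genes, Anln, Cenpa and Kif23 below the cut, and the printed promoters were chosen after their values were seen, as were the median in the naming rule and the 2 alternatives that leave out cells. The members and lists were chosen with earlier results of these data known. The computations were tested on simulated data. Each time has 1 library, so there is no replicate, no test and no p-value.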

Additional observations from a re-analysis of the deposited data

Results flagged for a closer look

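Cells left out of the comparisons also held mitosis gene UMIs, above the limit that a count of 0 allows. Of the cells removed as doublets with at least 2700 UMIs, 32.4% (80 of 247) at 2 weeks and 14.6% (81 of 556) at 4 weeks had 3 or more mitosis genes. Of the cells over the mitochondrial limit, 15.6% (23 of 147) and 25.0% (21 of 84) did. Whether these are dividing cells or mixtures with them was not tested.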

How the results depend on the processing

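In all, 27 results were recomputed in 191 combinations with 18 alternatives, and 110 lay within the reported counting interval, or within 1.5 times the reported count, while 81 did not. The cause of each shift was not tested. Where 2 genes were enough for a dividing cell, the shares at 2 and 4 weeks were 20.7% and 9.27% of all cells, 54.2% and 44.4% of thymocyte-like, 5.56% and 6.30% of all other cells, 2.03% and 0.911% of fibroblast-like, and 18.9% and 4.48% of cluster 10 cells. The share was then 20.0% of B cell-like cells at 4 weeks and 6.81% of macrophage-like cells at 2 weeks, and thymocyte-like cells were 81.5% and 37.2% of the dividing cells. Where 5 genes were asked for, the shares were 13.0% and 4.58% of all, 40.0% and 32.6% of thymocyte-like, and 0.786% and 2.23% of all other cells. They were 9.18% of B cell-like cells at 4 weeks, 0.873% of macrophage-like cells at 2 weeks, 0.0337% of fibroblast-like and 0% of cluster 10 cells at 4 weeks, and thymocyte-like cells were 95.8% of the dividing cells at 2 weeks.

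Thinning to 1500 UMIs gave 13.1% and 4.79% of all, 37.5% and 24.5% of thymocyte-like, 1.10% and 2.49% of all other, 10.2% of B cell-like (4 weeks), 1.03% of macrophage-like (2 weeks) and 0.0327% of fibroblast-like cells (4 weeks). Thinning to 5000 UMIs gave 21.0% and 8.41% of all, 81.2% and 77.4% of thymocyte-like, 3.69% and 4.77% of all other, 28.1% of B cell-like (4 weeks), 4.76% of macrophage-like and 1.19% of fibroblast-like (2 weeks) and 2.73% of cluster 10 cells (4 weeks). Without Mki67 and Top2a the shares were 14.4% and 5.23% of all cells, 43.1% of thymocyte-like cells at 2 weeks, 2.63% of all cells but thymocyte-like and 10.6% of B cell-like cells at 4 weeks. The summed levels were then 5330 and 4463 CPM in thymocyte-like and 1960 CPM in B cell-like cells.

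Without doublet removal 6.57% of all cells divided at 4 weeks, 3.46% and 4.08% of all cells but thymocyte-like, 3.64% of macrophage-like cells at 2 weeks, and 1.88% and 0.759% of fibroblast-like cells. Thymocyte-like cells were then 85.2% and 42.5% of the dividing cells, and the sums were 5746 CPM in thymocyte-like and 2532 CPM in B cell-like cells at 4 weeks. In that setting 3 genes in fibroblast-like and 15 in macrophage-like cells were lower by 2-fold or more. These counts are given without the share over all genes, so they have no background beside them. Clustering with cell cycle genes kept moved the thymocyte-like sum at 4 weeks to 5967 CPM, clustering without only the cell cycle lists moved the thymocyte-like share at 2 weeks to 49.0%, and clustering each library on its own moved the sums to 7027 and 5968 CPM. Cells weighed equally gave sums of 4509, 2886 and 1012 CPM in thymocyte-like (both times) and B cell-like cells, 14.8% for Top2a and 15.5% for Mki67. With 2 replication genes 92.6%, 94.5% and 92.0% of dividing cells carried them. Without a minimum of UMIs 32 genes in cluster 10 were lower by 2-fold or more, a count likewise given without the share over all genes. Without dividing cells, 2 of 31 genes were lower in fibroblast-like (all genes 5.58%) and 4 of 27 in thymocyte-like cells (2.72%). In cluster 10 it was 2 of 5 (6.80%). Without the top cell of each library, 5 of 32 were lower in fibroblast-like cells (5.73%).

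In the 12 settings that recomputed them, the dividing share of all cells was higher at 2 weeks and that of cells other than thymocyte-like higher at 4 weeks. Cluster 10 was recomputed only where the reported clusters were kept. Depth limits the scored cells to those with 2700 UMIs. No paired analysis was possible because each time has 1 library.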

Other observations

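The clustered histone genes, which package newly copied DNA and were not part of the mitosis genes, were mostly higher in dividing cells. Against cells of the same class without a mitosis gene UMI, 53 of 60 were higher by 2-fold or more in thymocyte-like cells at 2 weeks, 42 of 46 at 4 weeks and 36 of 41 in B cell-like cells at 4 weeks, while in macrophage-like cells at 2 weeks 14 of 24 were. Over all genes these shares were 10.9%, 10.9%, 14.8% and 9.88%. Hist1h2ap stood at 2071 CPM in dividing and 215 CPM in other thymocyte-like cells at 2 weeks (log2 3.27, 3.13 to 3.41). A pair went the other way there: Hist3h2a at 73.8 and 154 CPM (−1.06, −1.25 to −0.87) and Hist3h2ba at 114 and 235 CPM (−1.04, −1.19 to −0.89), both named after their values were seen.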
